A study of Mus musculus with 18 samples.

Results

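The genes described here encode the nuclear subunits of respiratory complex I in mouse dorsal root ganglion, the cluster of sensory nerve cell bodies beside the spinal cord. They were chosen by name, as every listed gene whose symbol is Nduf followed by a, ab, b, c, s or v and a number, which leaves out the assembly factors named Ndufaf. A gene also had to reach 1 CPM (its reads scaled to a common library total) in at least 4 of 16 pooled libraries. All 37 genes that matched by name passed, out of 22021 genes in the table and 14214 that passed the same filter. Each of the 37 was at 1 CPM or above in all 16 pooled libraries, so no member lay near the threshold.

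Complex I is the entry point of electrons into the mitochondrial respiratory chain. It takes electrons from NADH, passes them through a flavin and a chain of iron-sulfur clusters to ubiquinone, and moves protons out of the matrix. Its matrix arm consists of the N module, which binds NADH, and the Q module, which binds ubiquinone. The membrane arm holds the proton pumps, whose core proteins are encoded in the mitochondrial genome. The remaining core proteins and all accessory subunits come from nuclear genes and are translated on cytosolic ribosomes. Sensory neurons have long axons, and their mitochondria are much studied in the neuropathy that paclitaxel can cause.

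All mice carried a Cre recombinase gene driven by the promoter of Scn10a (the sodium channel Nav1.8) on a C57BL/6J background, and a Rosa26fsTRAP allele that Cre activates to make ribosomal protein L10a fused to EGFP. They were male and female littermates 8 to 12 weeks old. Translating ribosome affinity purification (TRAP) uses antibodies to GFP to pull down ribosomes of Nav1.8 neurons, most of them nociceptors, with their mRNA. From each extract, cleared of nuclei and mitochondria by spinning, 200 µl was kept as input and 800 µl went into the pulldown. Biosamples 1 to 4 came from normal mice and biosamples 5 to 8 from mice given paclitaxel, and each gave an input library and a TRAP library. Paclitaxel, a drug that stabilises microtubules, was given intraperitoneally at 4 mg/kg in 4 injections over 8 days, 16 mg/kg in all. Whether normal mice received vehicle is not in the labels, nor is the number or sex of the animals in a biosample, so p-values measure the spread between these biosamples. The tag marks neurons by Nav1.8 promoter activity and not by cell type, and the input holds every cell type of the ganglion.

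The promoters of some of the members that moved most are shown first, because the genes of this complex are known to share upstream factors. RefSeq windows on GRCm38.p6, from 250 bases before the start site to 50 after it, were found for 33 of the 37 members. Each of the following is printed 5′ to 3′ in the direction of transcription, with letters that match a searched motif in capitals. Ndufs6 (chr13:73328433-73328732, minus strand) and Ndufs5 (chr4:123718137-123718436, minus strand) are among the 4 members that rose most in the normal pulldown. Ndufa4 (chr6:11907401-11907700, minus strand) fell most there, and Ndufs8 (chr19:3912725-3913024, minus strand) had the largest rise with paclitaxel. Ndufv3 and Ndufa3, the others of the 4 that rose most in the normal pulldown, are not printed. Both changed more than Ndufs6, and their windows held no match to any searched motif.
Ndufs6: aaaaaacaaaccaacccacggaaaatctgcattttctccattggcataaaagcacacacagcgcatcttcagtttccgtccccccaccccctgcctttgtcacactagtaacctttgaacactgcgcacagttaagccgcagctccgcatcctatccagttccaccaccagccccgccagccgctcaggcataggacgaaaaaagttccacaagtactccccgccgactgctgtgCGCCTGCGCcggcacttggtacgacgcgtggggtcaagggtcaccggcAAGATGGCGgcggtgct
Ndufs5: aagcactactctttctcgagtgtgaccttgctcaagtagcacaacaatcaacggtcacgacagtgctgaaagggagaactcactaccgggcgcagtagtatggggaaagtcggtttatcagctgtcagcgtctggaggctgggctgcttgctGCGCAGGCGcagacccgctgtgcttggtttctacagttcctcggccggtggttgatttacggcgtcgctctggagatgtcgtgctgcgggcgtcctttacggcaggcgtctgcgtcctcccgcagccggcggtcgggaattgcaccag
Ndufa4: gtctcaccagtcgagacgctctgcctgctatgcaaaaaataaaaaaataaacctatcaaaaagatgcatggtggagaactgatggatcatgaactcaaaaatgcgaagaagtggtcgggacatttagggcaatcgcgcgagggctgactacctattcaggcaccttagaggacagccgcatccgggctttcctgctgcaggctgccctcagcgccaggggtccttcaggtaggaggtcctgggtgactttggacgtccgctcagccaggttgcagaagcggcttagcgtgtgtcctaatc
Ndufs8: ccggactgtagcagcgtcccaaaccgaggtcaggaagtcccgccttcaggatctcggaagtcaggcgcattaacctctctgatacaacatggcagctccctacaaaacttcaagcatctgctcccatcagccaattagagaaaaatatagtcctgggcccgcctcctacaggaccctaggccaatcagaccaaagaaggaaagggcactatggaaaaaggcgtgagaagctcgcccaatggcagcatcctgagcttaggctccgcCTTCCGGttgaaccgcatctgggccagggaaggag

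The capitals in Ndufs5 and the first capitals in Ndufs6 match the motif of nuclear respiratory factor NRF1. The second capitals in Ndufs6 match that of YY1, and those in Ndufs8 match that of ETS factors on the opposite strand. Ndufa4 has no capitals because none of the 4 motifs was found in its window. On either strand, GCGCANGCG (NRF1) was found in 8 of 33 member windows (24.2%) and in 7.03% of 27025 genes. AAGATGGCG (YY1) was found in 5 members (15.2%) and in 1.64% of genes. CCGGAAG (ETS) was found in 4 members (12.1%) and in 9.93% of genes, and TCAAGGTCA (the estrogen-related receptors) in 0 members and in 0.466% of genes. The windows of the members had a median GC content of 59.0%, against 52.67% over all windows. The NRF1 matches lay in Ndufa11, Ndufa5, Ndufa6, Ndufa8, Ndufb10, Ndufb4, Ndufs5 and Ndufs6. Of these 8, Ndufa11, Ndufa5, Ndufb10, Ndufs5 and Ndufs6 rose in the normal pulldown, Ndufa8 fell, and Ndufa6 and Ndufb4 did not pass. Of all 37 members 15 rose there and 4 fell. Whether the motif has a part in these changes was not tested.

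The 5 YY1 matches shared a position. They lay 22 to 35 bases after the start site and read in the direction of transcription, and the ATG inside each was the annotated start codon. Stretches of 30 bases around them are given here with the motif in capitals, from Ndufa9 (chr6:126849096-126849125, minus), Ndufc1 (chr3:51408914-51408943, minus), Ndufs4 (chr13:114388045-114388074, minus), Ndufs6 (chr13:73328433-73328462, minus) and Ndufs7 (chr10:80249463-80249492, plus).
Ndufa9: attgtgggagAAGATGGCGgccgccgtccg
Ndufc1: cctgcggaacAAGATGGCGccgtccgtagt
Ndufs4: gcgtttgcctacaggAAGATGGCGgcggtc
Ndufs6: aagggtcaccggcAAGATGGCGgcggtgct
Ndufs7: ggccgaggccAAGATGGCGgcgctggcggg
These letters are also the core of an element found at translation starts of mRNAs with very short leaders. Of these 5 genes, Ndufs4, Ndufs6 and Ndufs7 rose in both pulldowns, and Ndufa9 and Ndufc1 passed in neither.

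The libraries were made from 3′ ends, and CPM therefore needs no division by transcript length. They held 4.27 M to 14.5 M reads in input and 5.97 M to 32.7 M in TRAP, of which 20169 to 391619 fell on the members. The floor, set at 3 reads, was 0.0917 to 0.703 CPM, and the lowest member value in the 16 pooled libraries was 2.23 CPM. Before the 2 subsamples of biosample 7 were averaged, 36 of 37 members reached 1 CPM in its first pulldown subsample. The input libraries had 13152 to 14043 genes at 1 CPM or above. Among pulldowns that number was 9715, 10147, 12076 and 12439 in normal biosamples 1 to 4. It was 10884, 10399 and 13228 in paclitaxel biosamples 5, 6 and 8, and 8081 and 11945 in the subsamples of biosample 7, the first of them the lowest of all libraries. Scn10a, the check of the pulldown, was at 666 ± 248 CPM in normal input and 1002 ± 338 CPM in normal TRAP (SD, n = 4). In paclitaxel biosamples it was at 562 ± 76.4 CPM in input and 1405 ± 297 CPM in TRAP. Of 14 nociceptor markers, 2 rose and 2 fell in normal TRAP against input, and 9 rose and 0 fell in paclitaxel.

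The members spanned a wide range of levels. Ndufb8, a membrane-arm subunit, had the highest mean over the 16 pooled libraries, 1146 CPM, followed by Ndufs6 (1072 CPM), Ndufb3 (949 CPM) and Ndufa2 (808 CPM). The order differed between groups. In normal TRAP Ndufs6 (1980 CPM), Ndufa2 (1413 CPM), Ndufs5 (1205 CPM) and Ndufb3 (1134 CPM) lay above Ndufb8 (1038 CPM), and in normal input Ndufb3 (722 CPM) and Ndufb8 (708 CPM) were close. The 4 subunits with the highest pooled means, all accessory, made up 42.2% of the summed level of the members. Ndufs3, a core subunit of the Q module, was the lowest, at 18.9 CPM. The core subunits carry the flavin, the iron-sulfur clusters and the quinone site. Their 7 nuclear genes had pooled means of 18.9 to 113 CPM, below the median member at 146 CPM. Within groups some ranked higher, such as Ndufs1 in normal input, where its mean of 129 CPM ranked 18 of 37.

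In the 4 inputs of normal mice Ndufb8 was at 433, 1141, 756 and 502 CPM, and in their pulldowns at 1031, 1270, 1192 and 659 CPM. Its paclitaxel inputs were at 895, 885, 925 and 1123 CPM and the pulldowns at 2052, 1804, 1684 and 1985 CPM. The paclitaxel pulldowns of Ndufb8 lay above every other library. Ndufs3 was at 10.9, 10.7, 15.1 and 11.3 CPM in normal input and at 10.0, 37.2, 22.4 and 7.53 CPM in normal TRAP. In paclitaxel it was at 19.7, 17.4, 25.2 and 21.7 CPM in input and 43.7, 15.0, 12.6 and 22 CPM in TRAP, so that its pulldowns spread over both inputs.

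The summed level of the 37 members was higher in the pulldown than in the input of all 8 biosamples. It was 6230 ± 2313 CPM in normal input and 12277 ± 2243 CPM in normal TRAP (SD, n = 4), and 6912 ± 803 and 12222 ± 368 CPM in the paclitaxel libraries. The ratio of TRAP to input was 3.22, 1.5, 1.75 and 2.06 in normal biosamples 1 to 4 and 1.81, 1.98, 1.76 and 1.59 in paclitaxel biosamples 5 to 8. The normal inputs differed most from each other, from 4401 CPM in biosample 1 to 9460 CPM in biosample 2. Normal input 2 was the highest normal input in 27 of 37 members, and normal input 4 was the lowest in 21. The 8 skeletal muscle markers summed to 1909 CPM in normal input 2 and 2088 CPM in its pulldown, against 329 to 901 CPM in the other normal inputs and 207 to 419 CPM in the other normal pulldowns. Among these markers Pvalb is also counted as a marker of large-fibre neurons. The part of the muscle markers in the levels of that biosample was not tested.

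**Figure D1:**
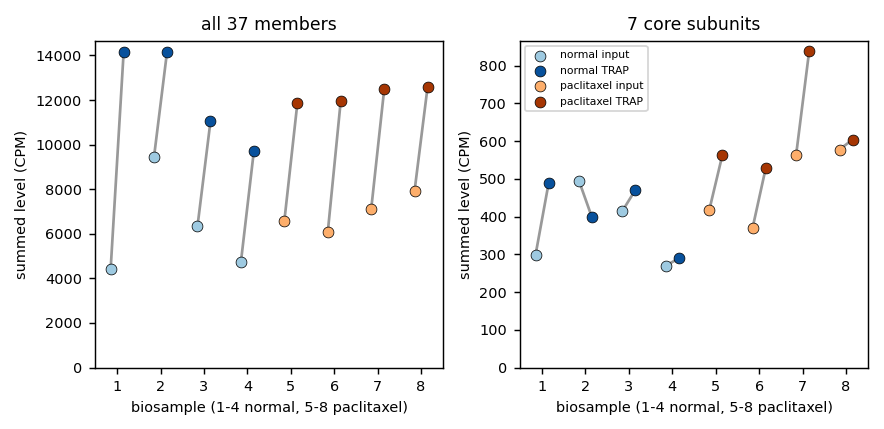
Summed level in CPM of all 37 members (left) and of the 7 core subunits (right) in each biosample, with a line from input (light) to TRAP (dark). The sum over all members was higher in TRAP in 8 of 8 biosamples, by 1.5 to 3.22 times, and the core subunits made up a small part of it.

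The first comparison asks which of these mRNAs were more abundant on tagged ribosomes than in the whole extract of the same normal mice. Of the 37 members 15 rose, 4 fell and 18 did not pass. Over all 14214 genes 29.8% changed, of which 5.09% rose and 24.7% fell. TRAP was higher in 4 of 4 biosamples in 15 members, against 8.41% of all genes. The median log2 change, on the log2(CPM + 1) scale, was 0.40 over the members and −0.66 over all genes. The pulldown level and the input level did not overlap, with TRAP higher, in 9 members (3.98% of all genes) and, with TRAP lower, in 1 (19.0% of all genes). In a bulk extract fewer cells of a type and less RNA per cell cannot be told apart. Under median-ratio scaling, which moved the median of all genes to −0.33, 18 members rose and 1 fell, and the calls over all genes were 9.89% higher and 12.0% lower. Under quantile normalization, with a median of all genes of 0.00, 15 rose and 1 fell, against 9.20% and 9.77%. Without biosample 1, 9 members rose and 3 fell, against 3.34% and 13.0% of all genes, and of the 4 members that fell in all biosamples Ndufa4 alone still passed. With the trends of transcript length and 3′ GC removed, 12 rose and 8 fell, against 4.26% and 22.8%.

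Members that rose were found in every module. In the N module 5 of 10 rose, and in the Q module 2 of 6. In the membrane arm 4 of 9 subunits of the part next to the matrix arm (the proximal arm) rose and 1 fell, and in the distal arm 4 of 11 rose and 2 fell.

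Ndufs5, an accessory subunit on the intermembrane face of the proximal arm (chromosome 4, 123712710 to 123718202, minus strand, in GENCODE vM21 on GRCm38), rose most. Its normal inputs were at 246, 357, 237 and 202 CPM and its pulldowns at 1782, 1679, 631 and 726 CPM. The groups did not overlap, and pulldowns 1 and 2, which of the 4 had the fewest genes at 1 CPM, stood well above pulldowns 3 and 4. The log2 change was 2.08 (SE 0.213, limma adjusted p = 5.76e-07), 4.24-fold. The last 200 nt of the transcript have a near-identical copy in BC002163, so its reads may be shared.

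Ndufv3, an accessory subunit of the N module (chromosome 17, 31520115 to 31531331, plus strand), was at 34.7, 84.5, 64.6 and 33.8 CPM in input and 331, 338, 171 and 94.8 CPM in TRAP. Every pulldown was above every input, and the gene rose by 2.01 (SE 0.262, limma adjusted p = 9.67e-06). Ndufa3, a small membrane protein of the proximal arm (chromosome 7, 3617373 to 3620327, plus strand), was at 179, 255, 148 and 254 CPM in input and 1205, 1230, 489 and 534 CPM in TRAP. It rose by 1.95 (SE 0.221, limma adjusted p = 1.71e-06), again with no overlap and with pulldowns 1 and 2 the highest.

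Ndufs6, a zinc-binding accessory subunit of the N module that is needed late in assembly (chromosome 13, 73319838 to 73328542, minus strand), was at 378, 547, 553 and 591 CPM in input. Its pulldowns were at 2310, 1728, 1618 and 2262 CPM, so that all 4 lay well above the inputs. The log2 change was 1.94 (SE 0.187, limma adjusted p = 3.21e-07). Its transcript end has a copy in Ndufs6b, and Mrpl36 overlaps it on the opposite strand, which makes its count uncertain. The other members that rose were Ndufb7 (1.73), Ndufa2 (1.69), Ndufa11 (1.54), Ndufa5 (1.31), Ndufb10 (1.07), Ndufs7 (1.00), Ndufa13 (0.93), Ndufv2 (0.78), Ndufb3 (0.72), Ndufs4 (0.67) and Ndufb8 (0.61), in log2 change. Ndufs4 is the subunit whose loss in mice gives a Leigh-like encephalopathy, and Ndufa13 is also known as GRIM-19.

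**Figure D2:**
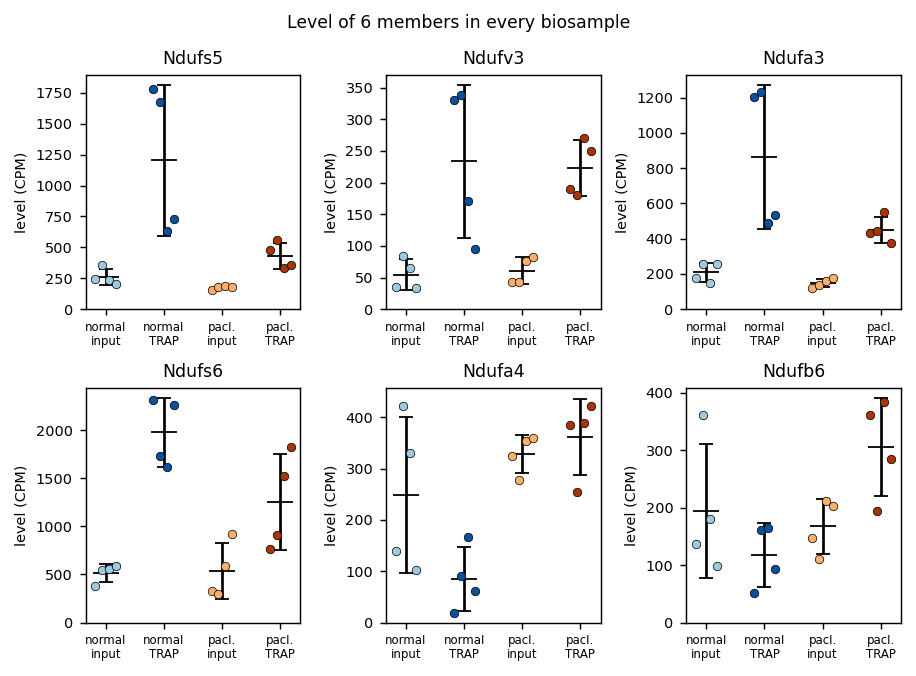
Level in CPM of Ndufs5, Ndufv3, Ndufa3, Ndufs6, Ndufa4 and Ndufb6 in the 4 groups; each point is a biosample, and bars are the mean and SD (n = 4). In the first 4 genes every normal pulldown lay above every normal input, and in Ndufa4 the normal pulldowns ranged from 19.1 to 167 CPM and were lower than the input of the same biosample in all 4.

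The members that fell in the normal pulldown were Ndufa4, Ndufa8, Ndufb5 and Ndufb6. Ndufa4 carries a complex I name, but its product is now placed in cytochrome c oxidase (complex IV). Its normal inputs (chromosome 6, 11900292 to 11907497, minus strand) were at 140, 421, 331 and 102 CPM and its pulldowns at 19.1, 90.0, 167 and 60.6 CPM. The pulldown was lower in each of the 4 biosamples, although the groups overlapped because the inputs spread widely. The log2 change was −1.69 (SE 0.255, limma adjusted p = 5.33e-05).

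Ndufa8, a proximal-arm subunit on the intermembrane face (chromosome 2, 36036326 to 36049406, minus strand), was at 36.9, 50.4, 53.7 and 31.9 CPM in input and 11.7, 32.0, 30.4 and 12.4 CPM in TRAP. It fell by 1.08 on the log2 scale (SE 0.303, limma adjusted p = 0.0109), with TRAP lower in all 4 biosamples. Ndufb5, a distal-arm membrane subunit (chromosome 3, 32736990 to 32751566, plus strand), was at 116, 118, 130 and 94.7 CPM in input and 57.9, 47.3, 62.1 and 88.9 CPM in TRAP. It was the member whose pulldowns all lay below its inputs, and it fell by 0.86 (SE 0.268, limma adjusted p = 0.0197). Ndufb6, also of the distal arm (chromosome 4, 40270591 to 40279421, minus strand), was at 136, 361, 179 and 98.9 CPM in input and 51.6, 161, 165 and 92.8 CPM in TRAP. It fell by 0.69 (SE 0.231, limma adjusted p = 0.0286), although the groups overlapped. The falls of Ndufa8, Ndufb5 and Ndufb6 did not pass under median-ratio scaling or quantile normalization, where the changes stayed below 0, and each also missed the threshold without biosample 1.

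Of the 7 core subunits 2 rose and 0 fell. Ndufs7, which lies at the quinone site, rose by 1.00 (limma adjusted p = 0.00554), and Ndufv2, an iron-sulfur protein of the N module, by 0.78 (adjusted p = 0.0296). Both missed the threshold without biosample 1. With length and GC trends removed Ndufs7 was at 0.40 (adjusted p = 0.187), and Ndufv2 also missed it without biosample 4, without the biosample block (adjusted p = 0.0771) and without a filter (limma adjusted p = 0.0626). The others did not pass. Among them the log2 change was 0.49 for Ndufv1, the flavin-binding subunit (adjusted p = 0.388), −0.58 for Ndufs1 (0.0615), 0.40 for Ndufs3 (0.56) and −0.20 for Ndufs8 (limma adjusted p = 0.786). Without biosample 2, Ndufv1 passed with 1.22 and Ndufs1 with −0.74. The values of Ndufs3 and Ndufs8 changed sign without that biosample, to −0.03 and 0.52.

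In the paclitaxel biosamples 18 members rose, 0 fell and 19 did not pass. Over all genes 27.9% changed in the same fit, with 4.92% rising and 23.0% falling. The median log2 change was 0.73 over the members and −0.56 over all genes, and all 37 members lay above the median of all genes. An unadjusted p under 0.05 was found for 20 members and for 40.4% of all genes. TRAP lay wholly above input in 12 members (6.21% of all genes) and wholly below it in 0 (25.1% of all genes). The number that rose was 22 under median-ratio scaling, with 8.90% of all genes higher and 13.7% lower. It was 7 after trends with the length and 3′ GC content of transcripts were taken out of every library, against 3.78% of all genes.

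The 4 members with the largest change in the normal pulldown also changed most here. Ndufv3 was at 43.2, 43.4, 76.0 and 81.9 CPM in input and 190, 180, 270 and 249 CPM in TRAP. Ndufa3 was at 122, 136, 162 and 175 CPM in input and 431, 444, 549 and 374 CPM in TRAP. Neither gene's groups overlapped, and the log2 changes were 1.89 (SE 0.262, limma adjusted p = 3.03e-05) and 1.59 (SE 0.221, limma adjusted p = 3.15e-05).

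Ndufs6 was at 329, 301, 592 and 922 CPM in input and 768, 914, 1519 and 1824 CPM in TRAP. Its groups overlapped because input and pulldown both varied between biosamples, with the pulldown higher in all 4, by 1.29 (SE 0.187, limma adjusted p = 4.99e-05). Ndufs5 was at 156, 179, 187 and 177 CPM in input and 477, 558, 334 and 357 CPM in TRAP, with no overlap and a change of 1.27 (SE 0.213, limma adjusted p = 0.000246). The other members that rose ranged from 0.60 (Ndufa5) to 1.21 (Ndufb7) in log2 change. They were Ndufb7, Ndufa2, Ndufb3, Ndufa13, Ndufb8, Ndufb4, Ndufa11, Ndufs7, Ndufb6, Ndufb10, Ndufa7, Ndufs4, Ndufc2 and Ndufa5.

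By module, 5 of 10 members of the N module, 2 of 6 of the Q module, 5 of 9 of the proximal arm and 6 of 11 of the distal arm rose. Among the core subunits Ndufs7 rose, by 0.88 (limma adjusted p = 0.0127), and missed the threshold without biosample 5 and without biosample 7. With length and GC trends removed it was at 0.25 (limma adjusted p = 0.45), and 0 core subunits passed. Ndufv1 passed under median-ratio scaling, with 1.20 (adjusted p = 0.0453), and in the fit without biosample 2 (adjusted p = 0.0492). Biosample 2 is normal, so leaving it out kept the paclitaxel change of Ndufv1 at 0.89 and altered the shared spread alone. Among those that did not pass, the log2 change was 0.89 for Ndufv1 (adjusted p = 0.124), 0.25 for Ndufv2 (0.487), −0.28 for Ndufs1 (0.387), −0.00 for Ndufs3 (0.996) and 0.91 for Ndufs8 (limma adjusted p = 0.202).

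**Figure D3:**
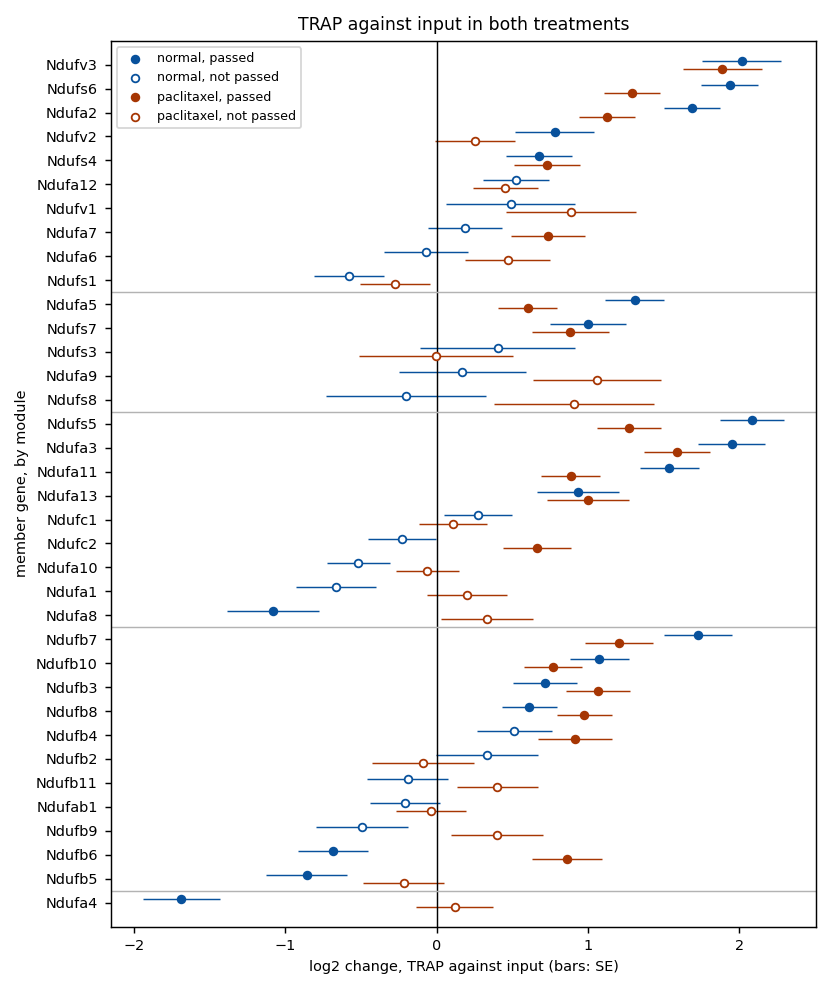
Log2 change of TRAP against input for 36 members, by module (N, Q, proximal arm, distal arm, then Ndufa4), in normal (blue) and paclitaxel (red) biosamples; bars are the SE, and filled points passed an adjusted p under 0.05. Ndufs5, Ndufv3, Ndufa3 and Ndufs6 lay between 1.27 and 2.08 in both, and Ndufa4 was at −1.69 in normal and 0.12 in paclitaxel biosamples.

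Side by side, 14 members rose in both treatments. Ndufv2 passed in normal biosamples alone, and Ndufa7, Ndufb4 and Ndufc2 in paclitaxel biosamples alone. Ndufa4, Ndufa8 and Ndufb5 fell in normal biosamples and did not pass in paclitaxel. Ndufb6 fell in normal and rose in paclitaxel biosamples, and 15 members passed in neither. Whether the pulldown change itself differed was tested by the interaction of fraction and treatment.

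In that test 2 members, Ndufa4 and Ndufb6, had a higher change in paclitaxel than in normal biosamples, and 0 had a lower one. Over all genes 0.19% passed (27 genes), 0.162% as higher and 0.0281% as lower. The interaction was 1.81 on the log2 scale for Ndufa4 (SE 0.361, limma adjusted p = 0.0345) and 1.55 for Ndufb6 (SE 0.327, limma adjusted p = 0.0426). In paclitaxel biosamples Ndufa4 was at 324, 278, 354 and 360 CPM in input and 384, 254, 390 and 422 CPM in TRAP, so that the ranges of input and pulldown overlapped. Ndufb6 was at 147, 110, 211 and 203 CPM in input and 361, 194, 384 and 284 CPM in TRAP, higher in the pulldown in all 4 biosamples. Both calls were lost without any 1 of biosamples 1, 2, 5, 6, 7 and 8, with adjusted p up to 0.163 for Ndufa4 and 0.205 for Ndufb6. Without biosamples 1, 2, 5 and 6, whose pulldowns had 9715 to 10884 genes at 1 CPM, the interaction of Ndufa4 was 1.05 (adjusted p = 0.345) and that of Ndufb6 was 0.78 (limma adjusted p = 0.612). Biosample 7, with 8081 genes in 1 of its 2 pulldown subsamples, was kept in that fit.

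Among members that did not pass the interaction, the estimates with the smallest unadjusted p were 1.41 for Ndufa8 (limma adjusted p = 0.167), 0.89 for Ndufc2 (0.269) and −0.82 for Ndufs5 (0.281). The SE of the interaction ranged from 0.259 to 0.748 over the members.

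**Figure D4:**
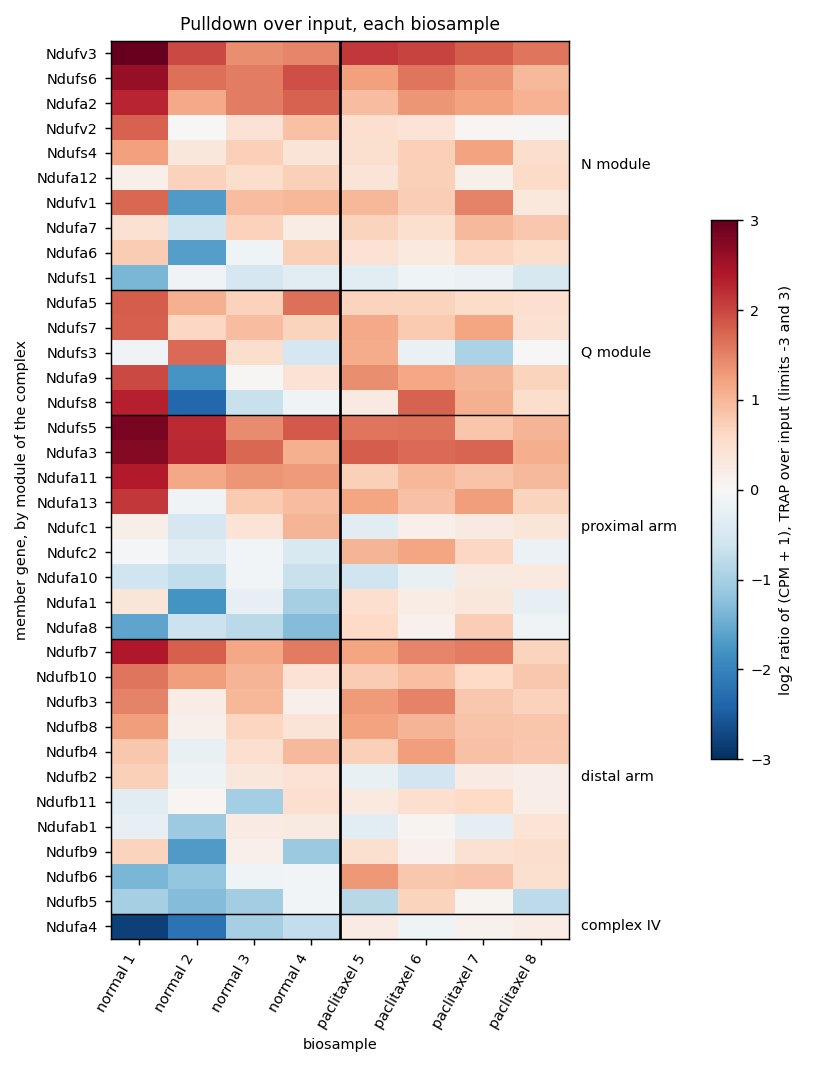
Log2 ratio of (CPM + 1) in TRAP over input in each biosample (columns) for 36 members (rows, by module); red is higher and blue is lower in TRAP, and the color limits are −3 and 3. Ndufa4 is blue in the 4 normal biosamples and near white in the 4 paclitaxel ones.

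The next comparison set the paclitaxel pulldowns against the normal pulldowns, which come from other mice. Of the 37 members 4 rose (Ndufs8, Ndufa4, Ndufa8 and Ndufa6) and 0 fell. Over all genes 1.82% changed, with 1.33% rising and 0.492% falling. The paclitaxel pulldowns lay wholly above the normal ones in 12 members (6.73% of all genes) and wholly below in 2, Ndufa2 and Ndufs5 (3.57% of all genes). The median log2 change was 0.66 over the members and 0.17 over all genes, and 25 members had an unadjusted p under 0.05, as did 16.9% of all genes. This comparison shares the normal pulldowns with the first, in which Ndufa4 and Ndufa8 were low.

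Ndufs8, an iron-sulfur core subunit of the Q module (chromosome 19, 3908863 to 3912774, minus strand), rose most. It was at 15.3, 7.64, 11.6 and 7.20 CPM in normal TRAP and 43.5, 76.1, 113 and 77.1 CPM in paclitaxel TRAP. The groups were far apart, and the rise was 2.76 on the log2 scale (SE 0.463, limma adjusted p = 0.0135). In the inputs it was at 2.23, 43.5, 18.9 and 7.97 CPM in normal and 36.0, 21.7, 53.4 and 53.4 CPM in paclitaxel biosamples, and these groups overlapped (log2 change 1.65, adjusted p = 0.157).

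Ndufa4 rose by 2.44 (SE 0.489, limma adjusted p = 0.0244), with the pulldown values already given and no overlap. Ndufa8 was at 84.3, 60.3, 117 and 74.7 CPM in paclitaxel TRAP, above each normal pulldown, and rose by 2.01 (SE 0.432, limma adjusted p = 0.0332). Ndufa6, an accessory subunit of the LYR family that binds the acyl carrier protein (chromosome 15, 82350140 to 82354322, minus strand), was at 104, 87.8, 124 and 84.1 CPM in normal TRAP and 260, 167, 385 and 390 CPM in paclitaxel TRAP. It also rose without overlap, by 1.52 (SE 0.3, limma adjusted p = 0.0224). At the other end, Ndufs5 had a log2 change of −1.36 (adjusted p = 0.0648) and did not pass.

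The count of 4 depended on single biosamples. It was 1 without biosample 1, 4 or 5, 0 without 2, 7 or 8, and 9 without 3 (8 rose and 1 fell). Over all genes 0% passed without biosample 2 or 8, and 0.0281% rose and 0.0211% fell without biosample 7. The share that rose was 0.148%, 0.556% and 0.169% without biosamples 1, 4 and 5, and 0.0281%, 0.232% and 0.0774% fell. Without biosamples 1, 2, 5 and 6 the count was 0, as over all genes, with changes of 3.22, 2.00, 2.2 and 1.92 for Ndufs8, Ndufa4, Ndufa8 and Ndufa6. With genes filtered at 5 CPM in 4 libraries it was 13 (12 rose and 1 fell), against 4.48% and 1.74% of the genes tested there. The share of all genes was 2.58% higher and 0.872% lower without biosample 3. The other core subunits did not pass. Of these, Ndufv1 had a log2 change of 1.54 (limma adjusted p = 0.0983).

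**Figure D5:**
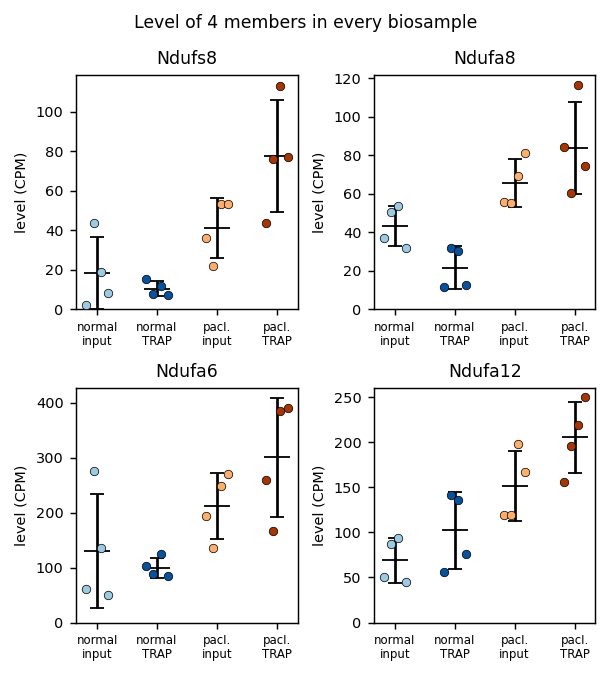
Level in CPM of Ndufs8, Ndufa8, Ndufa6 and Ndufa12 in the 4 groups; each point is a biosample, and bars are the mean and SD (n = 4). In the first 3 genes every paclitaxel pulldown lay above every normal pulldown, and in Ndufa12 every paclitaxel input (119 to 198 CPM) lay above every normal input (45.2 to 94.2 CPM).

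In the inputs, paclitaxel against normal, 1 member rose and 0 fell, against 1.46% and 0.183% of all genes. This was Ndufa12, an accessory subunit of the N module (chromosome 10, 94198720 to 94221443, plus strand). It was at 50.0, 86.6, 94.2 and 45.2 CPM in normal input and 120, 119, 198 and 168 CPM in paclitaxel input. The groups did not overlap, and the log2 change was 1.16 (SE 0.268, limma adjusted p = 0.0456). Paclitaxel inputs lay wholly above normal inputs in 3 members, Ndufs3, Ndufa12 and Ndufa8 (8.16% of all genes), and wholly below in 1, Ndufs5 (3.14% of all genes). The median change was 0.41 over the members and 0.14 over all genes, and 12 members had an unadjusted p under 0.05, as did 19.1% of all genes. The count was 0 without biosample 1, 4, 5, 7 or 8 and 10 without biosample 2, the normal input in which most members were highest. In that last fit 4.62% of all genes rose and 1.23% fell. In the fits with a count of 0, the share of all genes that rose was 0% without biosample 1. It was 0.0492% to 0.788% without biosample 4, 5, 7 or 8.

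Markers of other cells moved between the treatments as well. The 6 red cell markers summed to 852 to 1196 CPM in normal input and 1615 to 3740 CPM in paclitaxel input, and to 207 to 657 and 323 to 974 CPM in the pulldowns. The 6 brown fat markers summed to 66.0 to 153 CPM in normal and 189 to 308 CPM in paclitaxel input, and to 13.7 to 80.4 and 39.6 to 102 CPM in the pulldowns. Ucp1, the uncoupling protein that defines brown fat, ranged from 0.17 to 1.91 CPM in normal TRAP and from 5.74 to 22.7 CPM in paclitaxel TRAP. Of the brown fat markers, Adipoq and Elovl3 were at 0 in some pulldowns of both treatments. Of the red cell markers, 2 of 6 rose in paclitaxel input, and so did 2 of the 5 brown fat markers tested, 2 of 10 satellite glia markers and 1 of 7 endothelial markers. Between the pulldowns 0 of these 4 lists' markers passed. Of the 14 nociceptor markers, 3 rose and 0 fell between the pulldowns, with a median log2 change of 0.77, against 1.33% of all genes that rose. In the interaction of fraction and treatment 1 of the 14 was higher, with a median of 0.86. The part of these markers in the changes of the members was not tested.

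Markers of other cells that passed were lower in the pulldown. In normal TRAP against input the number that fell was 9 of 12 for large-fibre neurons, 8 of 10 for satellite glia, 10 of 10 for Schwann cells, 5 of 6 for fibroblasts, 3 of 9 for macrophages, 4 of 7 for endothelium, 5 of 8 for skeletal muscle, 3 of 5 for brown fat and 2 of 6 for red cells. In paclitaxel the same counts were 10, 8, 9, 5, 6, 6, 6, 4 and 6. In both comparisons 0 of these markers rose, and 24.7% and 23.0% of all genes fell. Pvalb was counted in both the large-fibre neuron list and the skeletal muscle list. The summed level of a list was not lower in every pulldown: in biosample 2 the muscle markers summed to 2088 CPM in TRAP and 1909 CPM in input, and in biosample 4 the brown fat markers summed to 80.4 and 79.9 CPM.

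Other genes of the pathway did not all follow the members. Of the mitochondrially encoded subunits of complex I, which are made on the mitochondrion's own ribosomes, all 6 that were tested fell in both pulldowns, with median log2 changes of −2.85 and −2.93. mt-Nd4 fell by 3.56 in normal and fell by 2.92 in paclitaxel biosamples (limma adjusted p = 2.94e-10 and 2.09e-08). Between treatments, mt-Nd1 (1.64) and mt-Nd2 (2.73) rose in the paclitaxel pulldown, and mt-Nd2 in the paclitaxel input. Of all genes 1.33% rose between the pulldowns and 1.46% between the inputs. Under median-ratio scaling mt-Nd2 alone rose between the pulldowns, and without biosamples 1, 2, 5 and 6 0 of the 6 passed there. The rise of mt-Nd2 between the inputs passed in both of these settings.

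Of 15 assembly factors tested, proteins that build the complex without staying in it, 1 rose and 4 fell in the normal pulldown and 1 rose and 2 fell in the paclitaxel one, beside 5.09% and 24.7% of all genes in normal and 4.92% and 23.0% in paclitaxel. Timmdc1, which helps build the membrane arm, was the one that rose, by 2.79 and 1.56 (limma adjusted p = 1.43e-05 and 0.00448). Ndufaf4 fell by 2.01 in the normal pulldown, and Acad9 fell by 1.96 and by 1.35. In the other 3 comparisons 0 of the 15 passed.

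Of 38 nuclear genes for complexes II to V, 7 rose and 10 fell in the normal pulldown (median −0.41), and 13 rose and 1 fell in the paclitaxel pulldown (median 0.47). Over all genes 5.09% rose and 24.7% fell in normal, and 4.92% and 23.0% in paclitaxel. The normal median of the 38 was 0.03 under median-ratio scaling, where 10 rose and 5 fell, and in paclitaxel 20 rose and 0 fell. With length and GC trends removed 4 rose and 16 fell in normal, and 3 rose and 1 fell in paclitaxel (median 0.06). Atp5e and Atp5k, small subunits of ATP synthase, rose by 1.54 and 1.51 in normal TRAP, and Sdhb, the iron-sulfur subunit of complex II, fell by 2.06. In the paclitaxel against the normal pulldowns 11 of 38 rose and 0 fell (median 1.11), against 1.33% and 0.492% of all genes. The largest rises were those of Sdhb (3.70), Cox7b (2.64) and Cox7a2 (2.28), and the count was 0 without biosamples 1, 2, 5 and 6. The interaction passed in 0 of 38, and in the inputs 1 rose, Cyc1 (1.68), against 1.46% of all genes.

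The members are short transcripts. Their median length in GENCODE vM21 was 908 nt, against 3073 nt over the tested genes, and the GC content of their last 500 nt had a median of 50.2% against 43.8%. The 4 members that fell in the normal pulldown had a median 3′ GC of 42.6%, and the 15 that rose one of 50.8%. For the 18 that did not pass it was 50.1%, close to that of the members that rose, which ranged from 35.0% to 58.8%. Across the 37 members Spearman's rho between log2 change and 3′ GC was 0.413 in normal and 0.565 in paclitaxel biosamples, and between log2 change and length −0.186 and −0.438. Over 14192 tested genes the values were 0.299 and 0.269 for GC and −0.137 and −0.215 for length. These are descriptions across genes of the same libraries, and genes are not independent replicates. With the trends of length and GC removed, Ndufs5, Ndufv3, Ndufa3, Ndufs6 and Ndufa2 rose in both.

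Other genes share sequence or position with some members, and the strand setting of the counting is not stated. In the annotation 6 members overlap another gene on the same strand and 15 on the opposite strand, 19 in all. A near-identical copy of the transcript end was found for Ndufs6, Ndufs5, Ndufa7, Ndufb11 and Ndufs3. The counts of these members are uncertain to that extent.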

How the data were processed

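The deposited table holds 18 libraries of 3′ end reads. Its headers name TPM, but the authors' deposited values are CPM: each column has the same total, and in each library 98.0% to 99.0% of values above 0 come out as whole reads (tolerance 0.0051 CPM). Per the submitters' processing notes FastQC 0.11.5, TopHat2 2.1.1, Bowtie2 2.2.9, Cufflinks 2.2.1 and GRCm38.p4 were used. GENCODE vM10 annotation was used, per the file headers. Strand setting and molecular identifiers are not given in the sources used here, so floors cover counting error only.

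Groups follow the labels. Subsamples of biosample 7 were averaged, and the authors' 2 merged columns were not used. Genes at 1 CPM or more in 4 of 16 pooled libraries were tested (14214 of 22021) as log2(CPM + 1), which understates changes of low genes, with limma (version 3.58.1, R 4.3.3, variance trend on). The 2 contrasts of TRAP with input and their interaction shared 1 fit, blocked by biosample; paclitaxel against normal was fitted on 8 pulldowns and on 8 inputs. Genes passed at a two-sided Benjamini-Hochberg adjusted p under 0.05 over all genes. Input and pulldown of a biosample came from 1 extract, per the labels' protocols; deviations from group means of same-numbered libraries correlated at 0.0534 to 0.376.

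Lengths, 3′ GC and overlaps came from GENCODE vM21 on GRCm38, copies from blastn 2.17.0 (95% identity over 60 nt of the last 200), promoters from RefSeq GRCm38.p6. The script was tested on simulated data. Members named with values are up to 4 per comparison and direction, the core subunits, Ndufa4 and the highest and lowest by level. Members, lists and settings were chosen with earlier results of these data known. For 1 member the values are counted but not reported here.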

Additional observations from a re-analysis of the deposited data

Results flagged for a closer look

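Among 148 groups of 4 libraries, 1 for each member and group, 6 had a library apart from the other 3 by the criterion of Dixon. Chance gives about 1 in 20, and 6 of 148 is below that share. Of the 6 flagged groups, 3 concern normal input of biosample 2. Ndufb3 was at 1468 CPM there against 563 CPM in the next normal input, Ndufb4 at 162 against 60.5 CPM, and Ndufs1 was the lowest at 103 against 135 CPM. Ndufs3 was highest in normal input of biosample 3, at 15.1 CPM. In the paclitaxel biosamples Ndufb8 was highest in input 8, at 1123 CPM, and Ndufab1, the mitochondrial acyl carrier protein, was highest in pulldown 8, at 283 CPM against 177 CPM in the next.

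The difference between treatments in the pulldown change passed the interaction test for Ndufa4 (1.81 on the log2 scale) and Ndufb6 (1.55). Each biosample's ratio was below 0 in the normal mice for both genes, and in the paclitaxel mice it was above 0 in 3 of 4 for Ndufa4 and in 4 of 4 for Ndufb6.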

How the results depend on the processing

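In TRAP against input, Ndufs5, Ndufv3, Ndufa3, Ndufs6, Ndufa2, Ndufb7, Ndufa11, Ndufa5, Ndufb10 and Ndufa4 kept direction and call in the normal pulldown under all 20 alternatives run, and the first 5 did so in the paclitaxel pulldown. Some of these could not move the estimate, only its p-value. For normal they were the fits without a paclitaxel biosample or with 1 subsample of biosample 7, and for paclitaxel those without a normal biosample. Leaving out 1 biosample gave 12 to 20 changed members in normal, 12 to 20 in paclitaxel, 0 to 2 in the interaction, 0 to 9 between pulldowns and 0 to 10 between inputs. Pairing followed the protocol. Without the biosample block 10 members rose and 3 fell in the normal pulldown, against 3.81% and 19.3% of all genes. In the paclitaxel pulldown 11 rose and 0 fell, against 3.03% and 18.9%, and in the interaction 0 passed, as over all genes. The count in the paclitaxel pulldown was 7 with length and GC trends removed. The interaction count was 0 with a pseudocount of 0.1, no filter, quantile normalization or subsample 1 of biosample 7 alone. It was also 0 with biosamples 1, 2, 5 and 6 left out or with length and GC trends removed. It was 1 with median-ratio scaling or subsample 2 alone, where 0.113% of all genes were higher. Between pulldowns the count was 9 with a pseudocount of 0.1 (8 rose and 1 fell), against 1.94% and 0.788% of all genes. It was 10 with quantile normalization (9 rose and 1 fell), against 2.16% and 1.52%. With length and GC trends removed it was 6 (4 rose and 2 fell), against 1.70% and 0.916%. A filter of 5 CPM gave 13 (12 rose and 1 fell), against 4.48% and 1.74%. The count was 0, as over all genes, without a filter or without biosamples 1, 2, 5 and 6. Between inputs it was 0 with a pseudocount of 0.1, no filter, a filter of 5 CPM, median-ratio scaling or quantile normalization. In these fits 0% to 1.39% of all genes rose. The count was 2 without those 4 biosamples, against 0.823% of all genes that rose and 0.0633% that fell. Without a filter 0% of all genes passed in the interaction, between pulldowns or between inputs. The cause of these shifts in the counts was not tested. Core subunits that had not passed changed sign: Ndufs8 in normal to 0.20 (median-ratio), 0.47 (quantile) and 0.52 (without biosample 2), Ndufs3 in normal to −0.032 (without 2), Ndufs3 in paclitaxel to 0.014 (pseudocount of 5), 0.30 (median-ratio), 0.44 (quantile), 0.19 (subsample 2 alone), 0.06 (without 6) and 0.31 (without 7), and Ndufs1 in paclitaxel to 0.041 (median-ratio). With 1 biosample left out, Ndufs3 ranged from −0.032 to 0.712 and Ndufs8 from −1.051 to 0.516 in normal, and Ndufs3 from −0.375 to 0.31 in paclitaxel. The planned edgeR test was not run. With 4 biosamples a group, a member that did not pass is not shown to be unchanged.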
